A study of Homo sapiens with 18 samples.

Results

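*MLLT11*, *STMN1*, *MEX3A*, *TEAD2*, *MARCKSL1* and *DCX* are 6 genes best known from neurons and their progenitors, and they were measured here in B-cell precursor leukemia cells in which *SOX11* was silenced. They were picked from 26941 genes for a known tie to SOX11 or to neuronal differentiation, with their levels and their response to the *SOX11* siRNA already known, so those values are given as a description. RNA was sequenced from 18 samples of 3 established human cell lines. The lines are REH, 697 and RCH-ACV, all of B-cell precursor leukemia. In each line 3 biological replicates received *SOX11* siRNA and 3 received a non-specific control siRNA, both at 300 nM by nucleofection, and RNA was collected 48 h later. An siRNA lowers a gene's RNA without deleting the gene.

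SOX11 is a transcription factor of the SoxC family that acts in developing neurons, where it follows the proneural factors and switches on genes of the immature neuron. Among the best known genes of that stage are cytoskeletal regulators such as doublecortin and stathmin, which shape the microtubules of migrating and outgrowing cells. It is normally silent in the B lineage, but it is expressed in mantle cell lymphoma and in some subtypes of precursor leukemia.

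The 4 genes that were expressed all lie on chromosome 1. In hg19 coordinates *MLLT11* spans chr1:151032873-151042020 on the plus strand with 2 exons, and *MEX3A* spans chr1:156041804-156052256 on the minus strand with 2 exons. *STMN1* spans chr1:26210672-26233482 with 5 exons and *MARCKSL1* spans chr1:32799440-32801834 with 2 exons, both on the minus strand. *TEAD2*, with 13 exons, lies at chr19:49843852-49865714 and *DCX*, with 7 exons, at chrX:110537007-110655657, again both on the minus strand.

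SOX proteins bind short motifs such as ACAAAG and ACAATG. Both were searched on both strands of the RefSeq promoters in GRCh38.p14, taken from 250 bases before to 50 bases after each start. Of 35116 promoters of all genes, 16.1% held ACAAAG, 10.8% held ACAATG and 24.5% held either. The windows below show where the motif falls in the promoters of an expressed gene that was lower with *SOX11* siRNA in all 3 lines (*MLLT11*) and of the expressed gene that moved least in REH (*STMN1*). Capitals mark the motif, which reads in the direction of the gene in *MLLT11* and on the opposite strand in *STMN1*.
MLLT11 promoter, chr1:151060417-151060446, plus strand: tgaagagggaaaaggagtgagaagACAAAG
STMN1 promoter, chr1:25906029-25906058, minus strand: cgccgggttcccCATTGTctgaagggacgg
STMN1 promoter, chr1:25906188-25906217, minus strand: gcggagcctcgcCTTTGTccccgctctccg
The *MLLT11* match begins 44 bases after the start, and the *STMN1* matches begin 1 base and 160 bases before a start. Each of the 3 *STMN1* promoters held a match. Both *TEAD2* promoters and all 3 *DCX* promoters also held a match, although neither gene was expressed. The single promoters of *MEX3A* and *MARCKSL1* held 0 matches, which says only that these letters are not in the windows searched.

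Each sample had between 7039505 and 16592565 counts on these genes, and levels are given as CPM, the counts of a gene scaled by the TMM-adjusted total of its sample. The smallest level taken as shown is 3 counts, which was 0.179 to 0.441 CPM depending on the sample, and covers counting error only. The targeted gene was lower in every line. *SOX11* stood at 54.2 ± 6.90 CPM with *SOX11* siRNA against 96.4 ± 2.92 CPM in controls in REH, at 31.7 ± 0.848 against 59.7 ± 0.279 CPM in 697, and at 82.4 ± 4.06 against 131 ± 6.08 CPM in RCH-ACV (mean ± SD, n = 3 each). That left 56.4%, 53.0% and 62.7% of the control level. The summed level of 10 B-cell precursor markers lay between 2542 and 5229 CPM in all 18 samples, while 6 T-cell markers summed to at most 0.580 CPM and 4 erythroid markers to at most 0.313 CPM. The B-lineage label holds, with the exception that *VPREB1*, which encodes a surrogate light chain, had 1 count in the 3 REH controls. The 6 myeloid markers summed to 2.35 to 31.1 CPM, mostly *MPO* in REH and *CSF1R* in RCH-ACV, and the 4 fibroblast markers to 14.8 to 192 CPM, nearly all of it *PDGFRB*. Some of these sums moved with the siRNA without overlap. In REH the B-cell precursor sum was 5113 to 5229 CPM with *SOX11* siRNA against 4679 to 4877 CPM in controls. Its markers did not share a direction, with *MME* at 1444 against 1133 CPM and *EBF1* at 325 against 356 CPM. Of the 9 tested, 2 were called higher and 1 lower. The myeloid sum in REH was 8.74 to 10.0 against 14.1 to 15.6 CPM, where *MPO*, at 7.90 against 13.5 CPM, was called lower. In 697 the B-cell precursor sum was 2628 to 2723 CPM against 2833 to 2939 CPM. The part of these markers in the results was not tested. In RCH-ACV replicate 3 with *SOX11* siRNA stood apart, in that 2479 genes passed the test without it against 973 with it. In 697 control replicate 1 and *SOX11* siRNA replicate 3 also differed more from their group than its other replicates did from each other. The part of this in the low number of calls in 697 was not tested.

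*DCX* encodes doublecortin, which binds and stabilises microtubules in migrating neurons and is a classic marker of the immature neuron. It had 0 counts in all 18 samples, on each of its 5 annotated transcripts, so its level was below 0.179 to 0.441 CPM throughout. Its relatives, the doublecortin-like kinases, were also scarce. *DCLK1* had 0 counts in every sample and *DCLK3* had 1 count in all, while *DCLK2* had 0 counts in the 6 REH samples but stood at 21.5 ± 3.56 CPM in 697 controls and 15.9 ± 1.97 CPM in RCH-ACV controls.

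*TEAD2* encodes a DNA-binding partner of the Hippo pathway co-activators YAP and TAZ and is expressed in the early embryo and in neural progenitors. In REH it had 1 count in each of the 3 controls and 1 count in 1 of the 3 samples with *SOX11* siRNA, and in 697 and RCH-ACV it had 0 counts in all 12 samples. No sample reached 3 counts. For *TEAD2* and *DCX* the name neuronal-type genes therefore has no measured expression behind it in these cells, and neither passed the filter on low counts, so no effect of the siRNA could be measured. The TEAD gene with the highest level per kb was *TEAD4*, at 13.1 ± 0.477 CPM in REH controls, 52.8 ± 1.07 CPM in 697 controls and 43.1 ± 3.70 CPM in RCH-ACV controls.

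The remaining 4 genes were expressed in every sample, at levels that differed widely between genes. Per kilobase of transcript, *STMN1* had the highest level, at 1254 ± 21.3 CPM per kb in REH controls, 840.3 ± 29.4 in 697 controls and 827.6 ± 19.3 in RCH-ACV controls. *MARCKSL1* followed with 322 ± 14.7, 298 ± 6.88 and 294 ± 4.37 CPM per kb, and *MLLT11* with 70.5 ± 3.33, 62.3 ± 2.99 and 80.1 ± 0.875 CPM per kb in the same order of lines. *MEX3A* was the lowest of the 4, at 13.3 ± 0.509, 23.2 ± 1.18 and 25.1 ± 0.659 CPM per kb. *SOX11* itself was below *MEX3A* in every line, at 10.7, 6.63 and 14.6 CPM per kb.

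**Figure D1:**
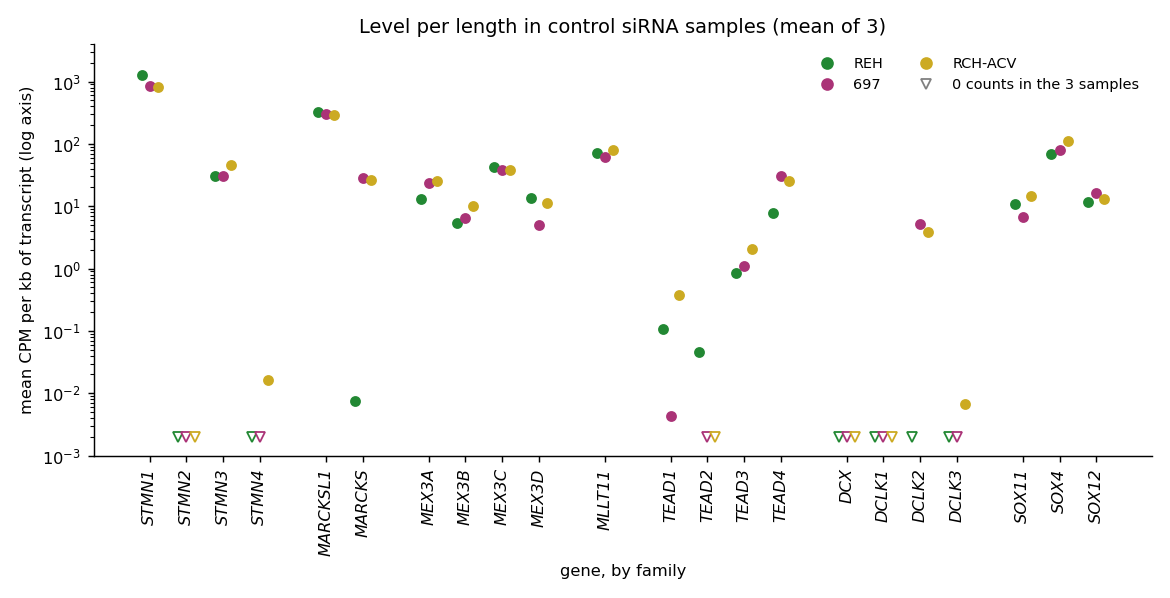
Mean level per length in the 3 control siRNA samples of each cell line (CPM per kb of transcript, log axis), with the genes grouped by family on the horizontal axis. Filled circles are means over 3 samples and open triangles at the bottom mark a gene with 0 counts in all 3. *STMN1*, *MARCKSL1*, *MLLT11* and *MEX3A* were expressed in all lines, whereas *DCX* had 0 counts everywhere and *TEAD2* 0 counts in 697 and RCH-ACV.

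The order of the cell lines differed from gene to gene. Among controls, *MLLT11* was highest in RCH-ACV, then REH, then 697, with no overlap between neighbouring lines. *STMN1* was higher in REH than in 697 and RCH-ACV, which overlapped each other. *MEX3A* showed the opposite order, with REH below 697 and RCH-ACV, which again overlapped. For *MARCKSL1* the values of REH and RCH-ACV did not overlap, and those of 697 overlapped both.

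With *SOX11* siRNA, 4 of the 6 genes were called lower in RCH-ACV, 3 in REH and 1 in 697, at an adjusted p-value under 0.05, and 0 were called higher. Of all genes tested, REH had 1.99% called lower and 2.63% higher, 697 had 0.477% and 0.0822%, and RCH-ACV had 3.92% and 3.59%. The response was among the values known when the genes were picked, so nothing is read from these counts beside the background. All of the effects were modest, and in bulk RNA less RNA per cell and fewer cells of one kind cannot be told apart.

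**Figure D2:**
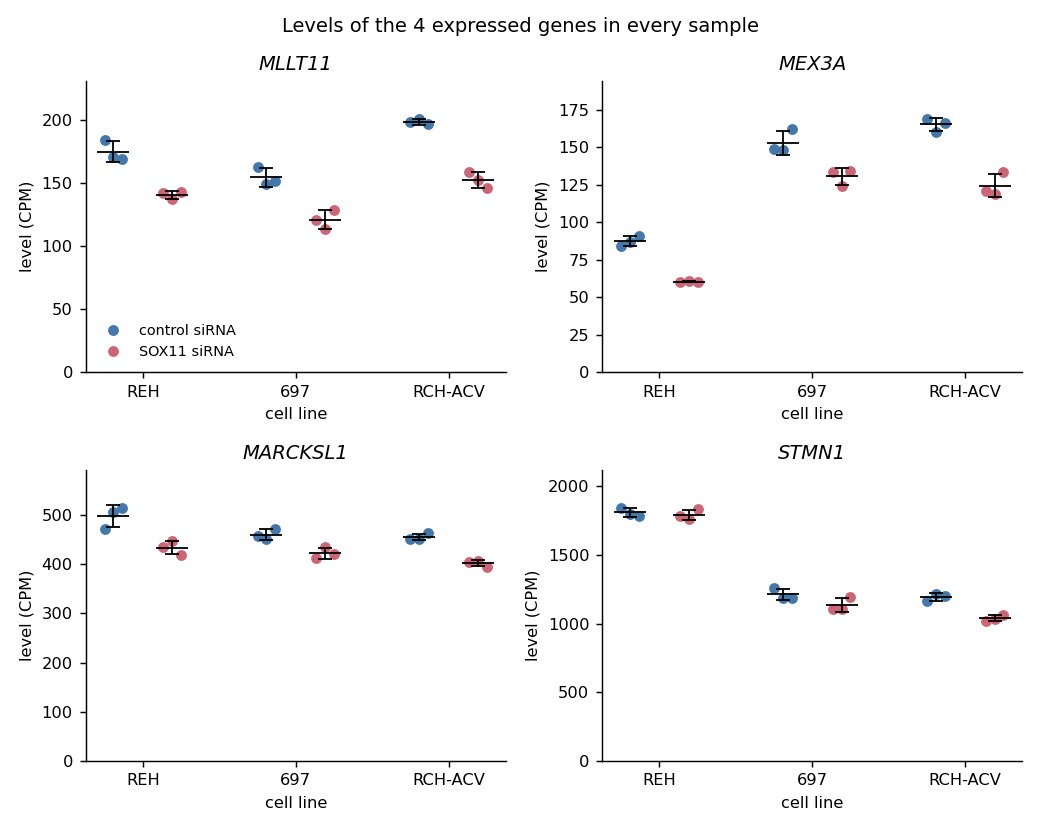
Level of the 4 expressed genes in every sample (CPM, axes from 0), by cell line on the horizontal axis, with control siRNA in blue and *SOX11* siRNA in red. Points are samples, and bars are the mean and SD of 3. *MLLT11* shows a gap between the groups in each line, while the *STMN1* points of REH overlap.

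*MLLT11* encodes a small protein first found as a fusion partner of KMT2A in leukemia, and it is normally made in developing neurons. It was the only one of the 6 that was called lower in all 3 lines. In REH its level was 142, 137 and 143 CPM with *SOX11* siRNA against 185, 171 and 169.6 CPM in controls. In 697 it was 121, 113 and 129 CPM against 163, 149.5 and 152 CPM. In RCH-ACV it was 159, 153 and 146 CPM against 199, 201 and 197 CPM. Every sample with *SOX11* siRNA was below every control of its line. In REH, 697 and RCH-ACV the log2 fold change was -0.31 (SE 0.04), -0.36 (SE 0.06) and -0.38 (SE 0.05), which left 80.8%, 78.1% and 76.8% of the control level. The call in 697 was lost with each of 4 of the 6 samples left out, at adjusted p-values of 0.0913 to 0.204, and the log2 fold change lay between -0.40 and -0.31 over all 6 omissions.

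Groups without overlap are common with 3 samples a side. Over all tested genes the share whose groups did not overlap was 25.9% in RCH-ACV, 21.4% in REH and 13.1% in 697. *CDC42SE1*, on the opposite strand, shares 178 exon bases with *MLLT11*, and whether the counting used strand is not given in the sources used here. *CDC42SE1* was not called in any line, with log2 fold changes of -0.08, -0.02 and -0.07. Its groups did not overlap in REH, at 99.7 to 102.1 CPM with *SOX11* siRNA against 106.0 to 107.5 CPM in controls. *MEX3A* likewise shares 82 exon bases with *AL355388.1* on the opposite strand.

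*MEX3A* encodes an RNA-binding protein with KH domains and a RING finger, from a family that represses target mRNAs and that is linked to stem and progenitor cells. Its level in REH was 60.2, 60.5 and 60.2 CPM with *SOX11* siRNA and 84.2, 86.9 and 90.9 CPM in controls. In 697 it was 133, 124 and 134 CPM against 149, 148 and 162 CPM, and in RCH-ACV 121, 119 and 133 CPM against 169, 160.4 and 166 CPM. The groups did not overlap in any line. The log2 fold change was -0.53 (SE 0.05) in REH and -0.41 (SE 0.05) in RCH-ACV, both called, and -0.23 (SE 0.06) in 697, which was not called. The level left was 69.4% of control in REH, 75.1% in RCH-ACV and 85.2% in 697.

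The relatives of *MEX3A* were measured beside it. *MEX3B* fell in REH from 18.6 ± 1.76 to 12.3 ± 1.01 CPM, a log2 fold change of -0.61 (SE 0.11, adjusted p = 0.000839 by the quasi-likelihood test of edgeR, adjusted by Benjamini-Hochberg). It also fell in RCH-ACV, from 34.1 ± 1.12 to 27.5 ± 1.65 CPM (log2 fold change -0.32, SE 0.08, adjusted p = 0.0184 by the same edgeR test). In 697 *MEX3B* stood at 17.7 ± 2.32 against 22.03 ± 3.75 CPM, which did not pass (adjusted p = 0.606 by the edgeR test). *MEX3C*, the family member with the highest level per kb, fell in RCH-ACV by 0.18 on the log2 scale (adjusted p = 0.0490) and did not pass in REH or 697. *MEX3D* passed in no line by edgeR, with 29.2 ± 1.96 against 34.7 ± 1.80 CPM in RCH-ACV. Of the 3 relatives, 2 were called lower in RCH-ACV and 1 in REH, where 3.92% and 1.99% of all tested genes were. The relatives were added after their values were seen, so nothing is read from these counts. Together with *MARCKS*, the relatives called in RCH-ACV numbered 3, but 1 by DESeq2, and 1 without *SOX11* siRNA replicate 2 or without control replicate 1 or 3.

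*MARCKSL1* encodes a membrane-bound substrate of protein kinase C that crosslinks actin and is abundant in the developing brain. In REH its level was 434, 447 and 419.6 CPM with *SOX11* siRNA against 472, 507 and 515 CPM in controls. In 697 it was 412, 434 and 421 CPM against 457, 452 and 472 CPM, and in RCH-ACV 405, 406 and 395 CPM against 452, 451 and 463 CPM. The groups did not overlap in any line, yet the shift was small. The log2 fold change was -0.19 (SE 0.04) in REH and -0.18 (SE 0.04) in RCH-ACV, both called, and -0.13 (SE 0.04) in 697, not called, which left 87.4%, 88.4% and 91.6% of the control level.

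Its relative *MARCKS* was nearly absent from REH, with 1 count in the 3 controls and 2 counts in the 3 samples with *SOX11* siRNA, although *MARCKSL1* had its highest mean there. In RCH-ACV *MARCKS* fell from 114.5 ± 6.15 to 89.99 ± 8.20 CPM (log2 fold change -0.35, SE 0.06, adjusted p = 0.00241 by edgeR). In 697 the levels were 97.4 ± 4.67 and 121 ± 7.74 CPM without overlap, but the change did not pass (log2 fold change -0.31, SE 0.07, adjusted p = 0.0880 by edgeR).

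*STMN1* encodes stathmin, which binds tubulin and destabilises microtubules, and which is made both in immature neurons and in many dividing cells. In REH its level was 1784, 1764 and 1833 CPM with *SOX11* siRNA against 1844, 1799 and 1786 CPM in controls, so the groups overlapped. In 697 it was 1105, 1106 and 1191 CPM against 1261, 1188 and 1188 CPM, where the highest treated sample exceeded the lower controls. In RCH-ACV it was 1021, 1031 and 1064 CPM against 1163, 1218 and 1202 CPM, with no overlap. The log2 fold change was -0.01 (SE 0.03) in REH and -0.10 (SE 0.04) in 697, neither called, and -0.20 (SE 0.03) in RCH-ACV, which was called. The levels with *SOX11* siRNA were 99.5%, 93.4% and 87.0% of control.

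The 4 RefSeq transcripts of *STMN1* give no separate view of this. The transcripts NM_203401 and NM_005563 hold the same reads as the counted NM_203399, within 99.98% to 100.01% of its count, and the shorter NM_001145454 held 33.8% to 35.6% of it in every sample. Of the other stathmin genes, *STMN2*, a neuronal growth cone gene, had 0 counts in all samples and *STMN4* had 1 count in all. *STMN3* stood at 69.4 ± 3.22, 69.0 ± 9.22 and 102 ± 10.2 CPM in the controls of REH, 697 and RCH-ACV and passed the test in no line.

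The siRNA effect was also compared between lines in a single fit over the 18 samples. Of 14026 genes tested, 103 differed between lines, or 0.734%. Of the 4 expressed members 0 passed by edgeR and 0 by the likelihood-ratio test of DESeq2, while *MEX3A* and *STMN1* had an unadjusted p under 0.05. The effects on *MEX3A* in REH and 697, and those on *STMN1* in RCH-ACV and REH, are therefore not shown to differ between the lines.

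**Figure D3:**
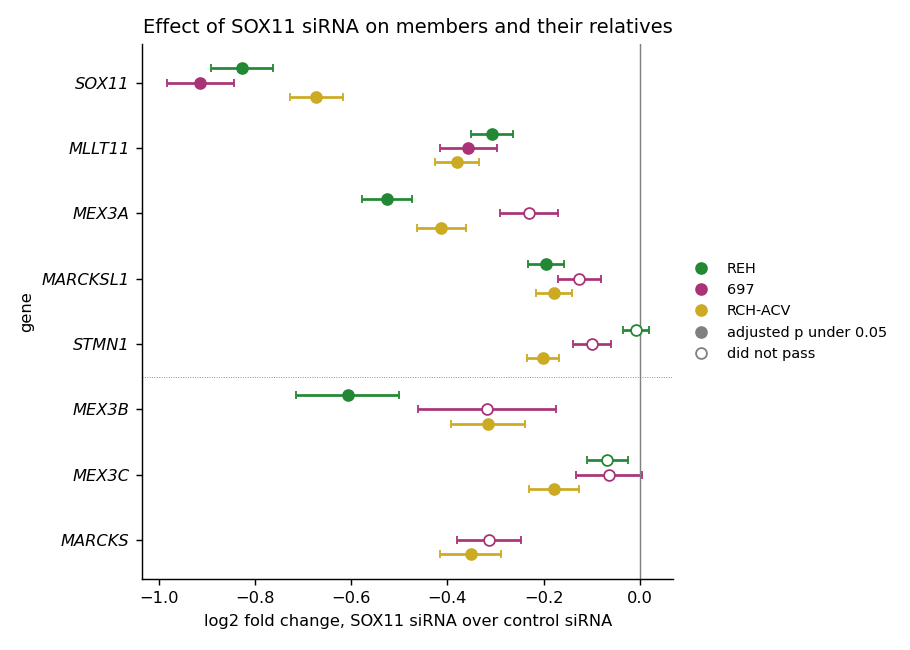
Log2 fold change of *SOX11* siRNA over control siRNA (horizontal axis) for *SOX11*, the 4 expressed genes and, below the dotted line, 3 relatives, in each cell line. Bars are standard errors from the fit of the line (3 samples a group), and filled circles passed an adjusted p-value of 0.05. *MLLT11* is filled in all 3 lines and *STMN1* in RCH-ACV alone, and *MARCKS* has no point in REH because it was hardly detected.

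Other neuronal genes were read from lists written with earlier results of these data known. Nothing is therefore read from the numbers called in these lists or in those that follow. Over all tested genes, 1.99% were called lower and 2.63% higher in REH. The shares were 0.477% and 0.0822% in 697, and 3.92% and 3.59% in RCH-ACV. The 27 microtubule and cytoskeleton genes include the stathmin and doublecortin relatives and *MARCKS* given above. Of the 27, 18 were expressed enough to test in RCH-ACV, 13 in 697 and 10 in REH. In RCH-ACV 6 fell, *MARCKS* among them, and 1 rose, with a median log2 fold change of -0.17 against 0.00 over all tested genes. The largest decreases were in *TUBB3*, the neuronal beta-tubulin, from 63.8 to 42.0 CPM (log2 fold change -0.61, SE 0.09, adjusted p = 0.000618 by edgeR), *DCLK2*, from 15.9 to 10.8 CPM (-0.55, SE 0.12, adjusted p = 0.00724), and *MAP1B*, a microtubule-associated protein of growing axons, from 130.5 to 95.7 CPM (-0.45, SE 0.08, adjusted p = 0.00188). Without control replicate 1 the number called in RCH-ACV was 4 in place of 7, and by DESeq2 it was 6.

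In REH 1 of the 10 tested fell, *CRMP1*, which encodes a collapsin response mediator of axon guidance (log2 fold change -0.15, SE 0.03, adjusted p = 0.00802 by edgeR). *CRMP1* also fell in RCH-ACV, by 0.26 on the log2 scale. The median log2 fold change of the list in REH was -0.03, against -0.002 over all tested genes. The number called in REH was 0 without control replicate 3 and 2 without control replicate 2. In 697 0 of the 13 passed by edgeR and 0 by DESeq2, 2 had an unadjusted p under 0.05, and the median log2 fold change was -0.13.

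The list of 27 neuronal transcription and RNA-binding factors moved in both directions. In REH *RCOR2*, a partner of the histone demethylase LSD1, and *RBFOX2*, a splicing regulator, fell, by 0.43 and 0.40 on the log2 scale (adjusted p = 0.0244 and 0.0144 by edgeR), and *POU4F1*, a sensory neuron factor, rose from 19.5 to 26.4 CPM (adjusted p = 0.00942). In RCH-ACV *RCOR2* fell by 0.31 (adjusted p = 0.0381) and *BCL11A*, which also acts in B-cell development, rose by 0.28 (adjusted p = 0.00360). The remaining 10 of 13 tested in REH and 9 of 11 in RCH-ACV did not pass. By DESeq2 1 of the list was called in REH and 1 in RCH-ACV. The 3 calls of REH became 0 without *SOX11* siRNA replicate 2 and 1 without control replicate 3, and the 2 of RCH-ACV became 4 without *SOX11* siRNA replicate 3 and 1 without any other single sample. In 697 0 of the 9 tested passed by edgeR and 0 by DESeq2, and 2 had an unadjusted p under 0.05. *RCOR2* in 697 stood at 9.02 against 11.4 CPM.

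Among 24 neural progenitor genes, 2 of 11 tested fell in REH, 3 of 9 fell in RCH-ACV and 0 rose in any line. The shares called lower over all tested genes were 1.99% in REH and 3.92% in RCH-ACV. The REH pair were *IGF2BP3* and *IGF2BP1*, oncofetal mRNA-binding proteins, which fell by 0.21 and 0.12 on the log2 scale (adjusted p = 0.0173 and 0.0392 by edgeR). Those of RCH-ACV were *NES*, which encodes nestin, *CDH2*, which encodes N-cadherin, and *VIM*, which encodes vimentin and is made by many cell types, with log2 fold changes of -0.66, -0.40 and -0.14 (adjusted p = 0.0386, 0.000661 and 0.0202 by edgeR). In 697 0 of 11 passed by edgeR and 0 by DESeq2, 1 had an unadjusted p under 0.05, and *IGF2BP3* stood at 48.2 against 61.7 CPM. DESeq2 called 0 of this list in REH and 2 in RCH-ACV. In REH 0 or 1 passed without *SOX11* siRNA replicate 1 or 2 or control replicate 2 or 3, and in RCH-ACV 1 passed without *SOX11* siRNA replicate 1 or control replicate 2 or 3.

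Genes of mature neurons showed no common direction. Of 25 such genes, 3 fell and 1 rose in RCH-ACV among 15 tested, with a median log2 fold change of 0.15, and 1 of 8 fell in REH. *KIF5C*, a kinesin, *GPRIN1*, which acts in neurite growth, and *SYT11*, a synaptotagmin, fell in RCH-ACV by 0.45, 0.25 and 0.19 on the log2 scale (adjusted p = 0.00518, 0.0210 and 0.0415 by edgeR), whereas the neuronal enolase *ENO2* rose by 0.42 (adjusted p = 0.00223). The gene that fell in REH was *SYT11*, from 5.07 to 3.00 CPM (adjusted p = 0.0281 by edgeR). DESeq2 called 0 of this list in REH and 2 in RCH-ACV. In 697 0 of 9 passed by edgeR and 0 by DESeq2, and 2 had an unadjusted p under 0.05. The number called in RCH-ACV was 7 without *SOX11* siRNA replicate 3 and 2 without replicate 1 or 2 or control replicate 1 or 3. In REH it was 0 without *SOX11* siRNA replicate 1 or control replicate 2 or 3, and 2 without control replicate 1.

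The neuronal marker set was uneven across the lines. The 8 markers summed to 59.7 to 174 CPM, but *NEFL* had 0 counts in all samples, *SNAP25* had 2 counts in the RCH-ACV controls and 0 elsewhere, and the mean of *RBFOX3* was at most 0.560 CPM in any group. The sum came from *ELAVL4* in REH, at 59.0 CPM in controls, from *SYT1* in 697, at 104 CPM, and from *SYT1*, *TUBB3* and *MAP2* in RCH-ACV, at 68.8, 63.8 and 35.2 CPM. In RCH-ACV the sum was 147 to 154 CPM with *SOX11* siRNA against 166 to 174 CPM in controls, without overlap. The markers did not share a direction there. *TUBB3*, also in the microtubule list, stood at 42.0 against 63.8 CPM and *MAP2* at 28.7 against 35.2 CPM. *SYT1* was higher, at 77.4 against 68.8 CPM. Of the 5 tested, 2 were called lower and 0 higher.

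**Figure D4:**
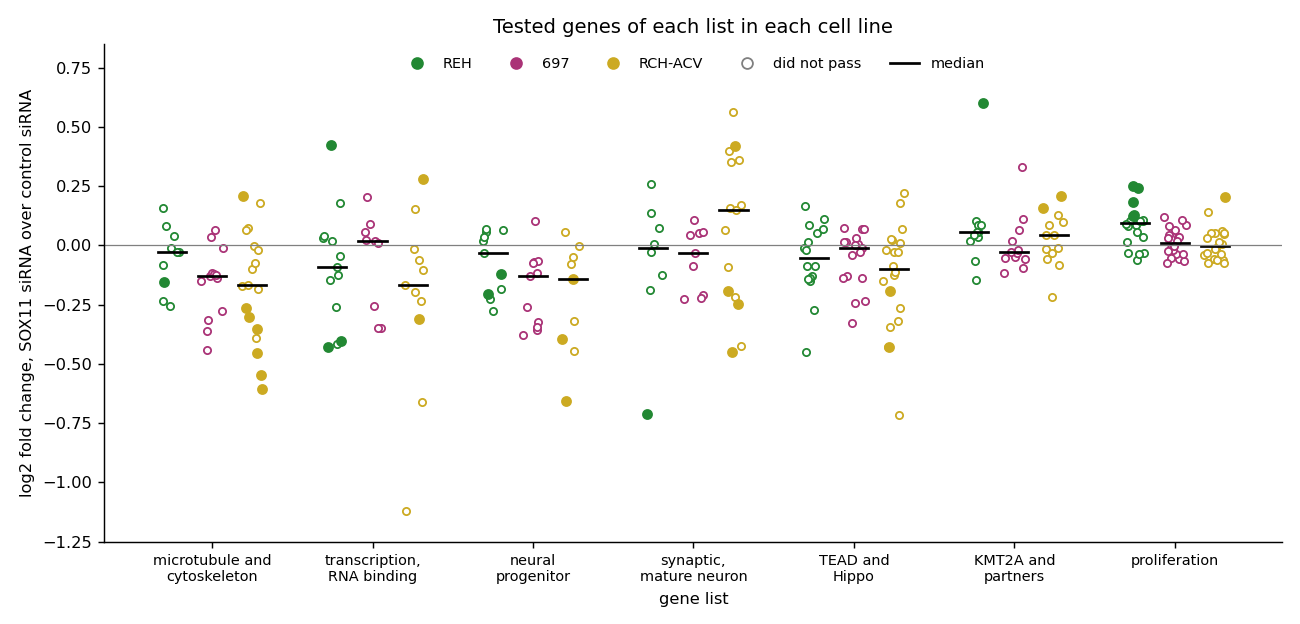
Log2 fold change of *SOX11* siRNA over control siRNA (vertical axis) for every tested gene of 7 gene lists (horizontal axis), by cell line. Filled circles passed an adjusted p-value of 0.05, and the black line is the median of the tested genes. The microtubule list has 6 filled points below 0 in RCH-ACV and 0 filled points in 697, and 5 proliferation markers are filled above 0 in REH.

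The genes that work with *TEAD2* in the Hippo pathway mostly did not pass the test. Of 27 such genes, 20 were tested in RCH-ACV, 17 in 697 and 16 in REH. In RCH-ACV *YAP1*, the co-activator that TEAD proteins bind, fell from 38.0 to 28.5 CPM (log2 fold change -0.43, SE 0.09, adjusted p = 0.00516 by edgeR), and *VGLL4*, which competes with YAP for TEAD, fell by 0.19 (adjusted p = 0.0485). Without any 1 of *SOX11* siRNA replicates 1 and 2 and control replicates 1 and 3 the number called in RCH-ACV was 1. It was also 1 by DESeq2. In REH and 697 0 passed by edgeR and 0 by DESeq2, and 5 and 1 had an unadjusted p under 0.05. *YAP1* was not among the genes tested in those lines, as it had 0 counts in every sample of both.

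Another list held *KMT2A*, fusion partners of KMT2A other than *MLLT11*, and *DOT1L*, which is not itself counted as a fusion partner. Of these genes 0 were called lower in any line. Of the 13 genes in the list, 12 were tested in REH, where *AFF3*, a component of elongation complexes, rose from 40.2 to 60.7 CPM (log2 fold change 0.60, SE 0.06, adjusted p = 1.02e-06 by edgeR). In RCH-ACV *DOT1L*, an H3K79 methyltransferase, and *SEPTIN9*, a septin, rose by 0.21 and 0.16 on the log2 scale (adjusted p = 0.0470 and 0.0487 by edgeR), and DESeq2 called 0 of the list there. In 697 0 of 12 passed by edgeR or DESeq2, and 0 had an unadjusted p under 0.05. The number called in RCH-ACV was 0 without any 1 of 5 of the 6 samples, *SOX11* siRNA replicate 3 being the exception. In REH it was 2 without *SOX11* siRNA replicate 1 or 3 or control replicate 2.

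Proliferation markers were read beside *STMN1*, which dividing cells also make. Of 20 markers 5 rose in REH and 0 fell, with a median log2 fold change of 0.09. Of all genes tested in REH, 2.63% were called higher and 1.99% lower. In 12 markers every treated sample was above every control and in 1 every treated sample was below. The share of all tested genes without overlap in either direction was 21.4%. *MKI67*, *TK1* and *AURKB* rose by 0.25, 0.24 and 0.18 (adjusted p = 0.000565, 0.00192 and 0.0321 by edgeR). The number called ranged from 3 to 7 with a sample left out, being 3 without *SOX11* siRNA replicate 2 or control replicate 3, and it was 3 by DESeq2, 1 in 1 fit over the 18 samples and 8 with no filter on low counts. In 697 0 of 20 passed by edgeR or DESeq2, with 0 at an unadjusted p under 0.05. In RCH-ACV *TK1* alone rose, by 0.20 (adjusted p = 0.0254 by edgeR). That call was lost without *SOX11* siRNA replicate 1 or 2 or control replicate 2 or 3, and DESeq2 called 0 markers there. In RCH-ACV 4 markers had every treated sample below every control and 2 had every treated sample above, where 25.9% of all tested genes did not overlap. *STMN1* did not rise with the markers in REH, at 99.5% of control, and the part of the markers in any result was not tested. Of the other SoxC genes, *SOX4* rose in REH from 334 to 379 CPM (log2 fold change 0.19, adjusted p = 0.00605 by edgeR), and *SOX12* passed in no line. The *SOX4* call was lost without control replicate 3, and *SOX12* passed in RCH-ACV with no filter on low counts and without *SOX11* siRNA replicate 3.

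The genes whose level followed each member most closely were sought among 11189 genes that averaged 5 CPM or more, by Pearson correlation of log2 CPM over the 18 samples. These samples share 3 cell lines and the siRNA, so the coefficients describe these libraries only. *MLLT11* was closest to *SOX11* (r = 0.94), followed by *CANT1* and *TMED2* (0.89 each). *MARCKSL1* was closest to *MDK*, the growth factor midkine (r = 0.90). *MEX3A* was closest to *CTNNA1* (0.98) and *STMN1* to *TNFAIP3* (0.99), and for *MEX3A* and *STMN1* the differences between lines dominate. After the mean of each line was taken off, *MLLT11* was closest to *CDK2AP1* (0.96), *NASP* and *HSP90B1* (0.95 each), and *MEX3A* to *RAI14*, *TRIB1* and *SLC16A1* (0.94 each). *MARCKSL1* was then closest to *MDK* (0.95), *MEX3B* and *MEX3A* (0.91 each), and *STMN1* to *TTPA*, *PHF6* (0.95 each) and *PANX1* (0.94).

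The word GTGACGC occurs once in the 3′ UTR of *SOX11* and was picked earlier on these data because genes that fell carried it often. It is shown at its site in *SOX11*, in capitals, to make plain which letters were searched for in the members.
SOX11 3′ UTR, chr2:5834341-5834370 in hg19, plus strand: gataagatgtcGTGACGCaaagaaattgga
Of 11766 genes whose annotated 3′ UTR was scanned, 190 held the word, or 1.61%, and 0 of the 6 members did. The 4 expressed members had 3′ UTRs of 2047 bases (*MLLT11*), 900 bases (*STMN1*), 4561 bases (*MEX3A*) and 758 bases (*MARCKSL1*). Among tested genes with the word, RCH-ACV had 29 of 181 called lower, 697 had 19 of 178 and REH had 22 of 181, beside 488 of 11315, 57 of 10736 and 246 of 11054 of all scanned genes. Because the word was picked for being frequent in genes that fell, nothing is read from these counts. No other part of the transcripts was searched for it. Its part in the lower levels of *MLLT11*, *MEX3A* and *MARCKSL1* was not tested.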

How the data were processed

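RNA-seq libraries (TruSeq Stranded mRNA) from 18 samples were processed by the authors, who trimmed and filtered reads with the FASTX Toolkit 0.0.14, checked them with FastQC 0.10.1, aligned them to hg19 with STAR 2.5.3a and discarded reads placed at more than 2 sites. HOMER 4.8 gave the deposited values, which are raw counts on RefSeq transcripts in 1 table per line, without normalization by the authors. Counting options and strand setting are not given in the sources used here. Some labels say KO where the protocol describes siRNA.

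Transcripts were matched to symbols (98.0% of transcripts, 99.0% of counts) and the transcript with the highest total was kept per gene. Each line was tested with edgeR 4.0.16 in R 4.3.3 (TMM, filterByExpr, two-sided quasi-likelihood F-test, Benjamini-Hochberg over all tested genes), and a fit over 18 samples tested the difference between lines. CPM used scaled library sizes of all 18 samples. Lengths, positions and 3′ UTRs came from GENCODE on hg19. Alternatives were DESeq2 1.42.0, other scalings, filters and transcripts, 1 fit over the 18 samples, a replicate block and leaving out each sample. The code was tested on simulated data. Replicates of a group differed by more than sampling noise in every pair (lowest chi-square per degree of freedom 1.27). The value was 4.86 between control replicates 1 and 3 of 697 and 4.04 between 1 and 2, against 1.75 between 2 and 3. For *SOX11* siRNA replicate 3 against replicates 1 and 2 it was 3.37 and 4.45 in 697, and 3.19 and 4.21 in RCH-ACV.

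The 6 genes and the lists were chosen with earlier results of these data known. From each list the up to 3 called genes with the largest absolute log2 fold change in a line were named, and relatives of the members were added after their values were seen.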

Additional observations from a re-analysis of the deposited data

How the results depend on the processing

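The 4 expressed members were refitted under 168 combinations of line and alternative. In 160 they kept direction and side of the threshold, 5 calls were lost, 1 was gained and 2 values changed sign. The lost calls were all of *MLLT11* in 697, without *SOX11* siRNA replicate 1 or 2, without control replicate 2 or 3, and with the replicate block, and the cause was not tested. *MEX3A* in 697 passed in 1 fit over the 18 samples. The log2 fold change of *STMN1* in REH, close to 0 throughout, was 0.00065 without *SOX11* siRNA replicate 2 and 0.0067 without control replicate 1, and ranged from -0.019 to 0.0067 with a sample left out. Called members numbered 3 to 3 in REH, 0 to 1 in 697 and 4 to 4 in RCH-ACV with a sample left out. In 697 they numbered 2 in 1 fit over the 18 samples.

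Over all genes, REH went from 591 calls to 313 with DESeq2, 226 in 1 fit over the 18 samples, 769 without a filter and 296 to 522 with a sample left out. 697 went from 68 to 119 without a filter, 189 in 1 fit and 25 to 70, and RCH-ACV from 973 to 577 with DESeq2, 1393 without a filter and 386 to 2479. In 1 fit over the 18 samples, 0 microtubule, 0 transcription and RNA-binding and 0 progenitor genes were called in REH. Differences between lines went from 103 to 56 to 177 with a sample left out. Replicate numbers did not pair the samples (correlations of -0.38 to 0.35). With the replicate block 697 had 29 calls and 0 members, and the difference between lines had 42. Depth limits *TEAD2* and *DCX*. No alternative could test *DCX*, which had 0 counts. *TEAD2* entered a fit only in REH with no filter on low counts, and no effect is read from it because no sample reached 3 counts.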
